A study of Mus musculus with 4 samples.

Results

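The unfolded protein response and the integrated stress response are the programmes by which a cell adjusts protein folding in the endoplasmic reticulum (ER) and the rate of translation. Their regulators were followed here as 10 genes chosen by symbol: Ern1, Xbp1, Atf6, Eif2ak3, Atf4, Ddit3, Ppp1r15a, Herpud1, Sel1l and Edem1. All 10 were found among the 31017 gene symbols counted in each library, and all 10 passed the filter on low counts that left 12035 genes to test. RNA sequencing had been done on FACS-isolated monocytes of wild-type C57BL/6 bone marrow, in 2 aged libraries (mice of 18 months) and 2 young ones (mice of 3 months). The labels give atherosclerosis as the disease of both groups, name no treatment and no sorting markers, and leave unsaid if each library stands for its own mouse. The p-values therefore rest on the spread among these libraries, which may be technical. Library totals ran from 20159129 to 34278754 counts. Lyz2, which encodes the lysozyme of myeloid cells, took more counts than any other gene in each library (3.30% to 3.51%), and the replicate libraries of each age differed by more than counting noise. A bulk library cannot tell fewer cells of a type from less RNA per cell.

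Misfolded protein in the ER is sensed by 3 membrane proteins, IRE1 (encoded by Ern1), PERK (Eif2ak3) and ATF6. IRE1 removes a short intron from Xbp1 mRNA, which yields the active transcription factor, ATF6 is cut in the Golgi to release its own, and PERK phosphorylates the initiation factor eIF2, which slows translation in general while favouring that of ATF4. ATF4 induces CHOP (Ddit3) and GADD34 (Ppp1r15a), and GADD34 recruits a phosphatase to eIF2 and so closes the loop. HERPUD1, SEL1L and EDEM1 serve ER-associated degradation, the route by which misfolded proteins leave the ER for the proteasome. In myeloid cells these pathways are known to be used during secretion and inflammatory activation.

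Of the 10 regulators, Ppp1r15a was higher and Ern1 lower in aged monocytes, and the other 8 did not pass the test. The test was edgeR's quasi-likelihood F-test over all genes with Benjamini-Hochberg adjustment at a threshold of 0.05, which called 5.77% of the tested genes, 2.87% as higher and 2.89% as lower. The median log2 change of the 10 was 0.066, beside -0.0044 over all tested genes. Aged and young libraries did not overlap for 5 of the 10, namely Ppp1r15a, Xbp1 and Herpud1 with the aged libraries above and Ern1 and Edem1 with the aged libraries below. Over all tested genes 51.6% did not overlap, 25.9% with the aged libraries above and 25.7% with them below, so the share among the regulators is near that of the background. Levels are in CPM, which are counts scaled to the TMM-adjusted library size, and a log2 change carries its standard error (2 libraries per group).

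**Figure D1:**
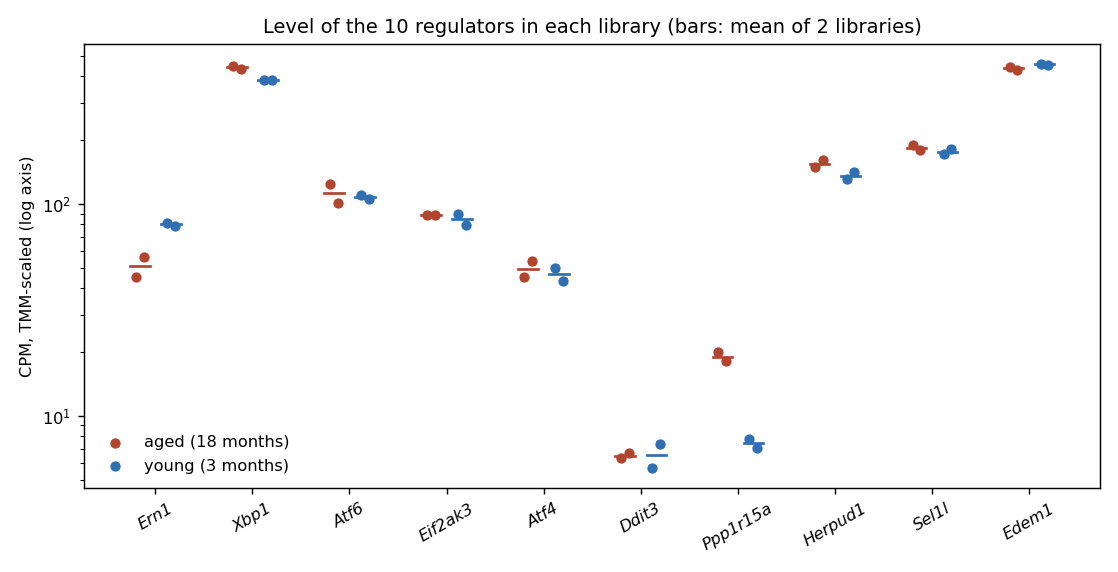
Each point is the level of 1 gene in 1 library, in CPM on a log axis, with aged libraries (18 months) left of young ones (3 months) and a bar at the mean of 2 libraries. Ppp1r15a stood at 19.9 and 18.1 CPM in the aged libraries against 7.81 and 7.07 CPM in the young ones, and Ern1 at 45.4 and 56.4 CPM in the aged libraries against 81.0 and 79.0 CPM in the young ones.

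**Figure D2:**
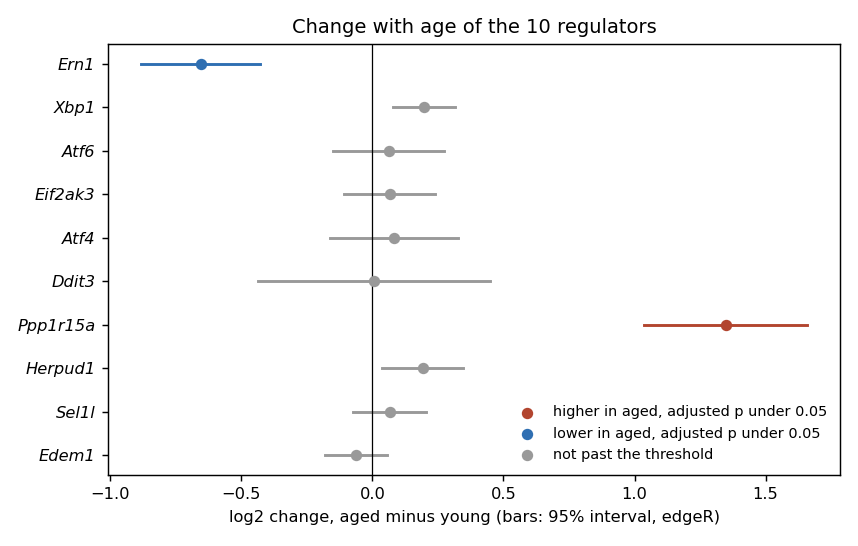
The log2 change (aged minus young) of each regulator is drawn with its 95% interval from the edgeR fit. The interval of Ppp1r15a (1.04 to 1.66) lies above 0 and that of Ern1 (-0.88 to -0.43) below it, while those of Xbp1 and Herpud1 exclude 0 without passing the adjusted threshold.

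Ern1, the gene of the sensor IRE1, was lower in aged monocytes. It had 45.4 and 56.4 CPM in the aged libraries, against 81.0 and 79.0 CPM in the young ones. The groups did not overlap, and the aged libraries lay farther apart from each other than the young ones did. The log2 change was -0.65 ± 0.10 (edgeR adjusted p = 0.00503), and the mean level was 50.9 ± 7.83 CPM in the aged libraries, against 80.0 ± 1.43 CPM in the young ones (SD, n = 2 each). Ern1 lies at chr11:106394650-106487852 on the minus strand (GRCm38). With 1 library left out at a time the change ran from -0.82, without aged replicate 2, to -0.50, without aged replicate 1, and passed each time. With per-library trends of GC content and gene length taken out it was -0.61 (edgeR adjusted p = 0.00591). Its paralogue Ern2, an epithelial form, had 0 counts in all 4 libraries.

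Xbp1, the transcript that IRE1 splices, was the most abundant regulator per kilobase of exon. It stood at 449 and 435 CPM in the aged libraries, against 385 and 386 CPM in the young ones (chr11:5520659-5525893, plus strand). Every aged library lay above every young one, with replicates closer to each other than to the other age, but the difference did not pass (log2 change 0.20 ± 0.053, 95% interval 0.078 to 0.31, edgeR adjusted p = 0.058). The adjusted p fell to 0.0486 with upper-quartile scaling, 0.0203 with no low-count filter, 0.043 with limma-voom and 0.0421 with robust edgeR, was 0.191 with GC content and length taken out, where the change was 0.13, and reached 0.294 without young replicate 1. These were the lowest and highest values with no replicate block, 0.0203 and 0.294. The counts are per gene, so they join the spliced and the unspliced form of Xbp1 and do not measure IRE1's activity. Per kilobase of exon, Xbp1 exceeded Ern1 24.9-fold and 19.4-fold in the aged libraries, against 12.0-fold and 12.3-fold in the young ones.

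Xbp1 is also a defining gene of plasma cells, which secrete antibody. Without Xbp1, the other 10 plasma cell markers summed to 197 and 204 CPM in the aged libraries, against 170.5 and 174 CPM in the young ones. Of the 8 that were tested, Sdc1 was higher, at 3.95 and 4.69 CPM in the aged libraries against 1.62 and 2.06 CPM in the young ones (edgeR adjusted p = 0.0302; 0.0924 without aged replicate 2 and 0.224 without young replicate 1). Jchain, the joining chain of secreted antibodies, had 29.3 and 27.96 CPM in the aged libraries against 22.9 and 22.1 CPM in the young ones and did not pass (edgeR adjusted p = 0.0782). The most abundant of these markers besides Xbp1 was Tnfrsf13b, at 113 and 120.3 CPM in the aged libraries against 106 and 112 CPM in the young ones. Tnfrsf13b made up most of the sum without Xbp1 in each library and did not pass (log2 change 0.099 ± 0.070, edgeR adjusted p = 0.461). With Xbp1 counted, 7 of the 9 tested markers had a positive log2 change. The other ones, Derl3 (-0.089 ± 0.61) and Pou2af1 (-0.025 ± 0.35), overlapped between the ages and did not pass. None of the 11 markers was at 0 in all libraries. Their part in the Xbp1 level was not tested.

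Atf6, the sensor that is itself a transcription factor for chaperone genes, differed between the ages by less than the aged libraries did from each other. It had 125 and 101 CPM in the aged libraries, against 111 and 106 CPM in the young ones (log2 change 0.062 ± 0.095, 95% interval -0.15 to 0.27, edgeR adjusted p = 0.758; chr1:170704674-170867771, minus strand). The young values lie between the aged ones. Its relative Atf6b had 165 and 192 CPM in the aged libraries, against 176 and 175 CPM in the young ones. The proteases that release ATF6, encoded by Mbtps1 and Mbtps2, did not pass either (log2 changes -0.054 ± 0.067 and -0.023 ± 0.17, edgeR adjusted p = 0.692 and 0.954). Of 9 tested genes among the other sensors and processing factors none passed, with 1 at an unadjusted edgeR p under 0.05, and none with DESeq2 or limma-voom; the smallest p belonged to Creb3, a membrane-bound transcription factor, at 0.23 ± 0.080 on the log2 scale (adjusted p = 0.129).

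Eif2ak3, the gene of PERK, had 89.1 and 88.3 CPM in the aged libraries, against 89.5 and 79.8 CPM in the young ones (chr6:70844515-70905245, plus strand). Its exons share 485 bases with Gm43292 on the other strand. As the strand option of the counting is not known, reads there may be shared or lost. The aged values lie within the range of the young ones, and the log2 change was 0.066 ± 0.079 (95% interval -0.11 to 0.24, edgeR adjusted p = 0.678). The other 3 eIF2 kinases did not pass. Eif2ak1, the haem-regulated kinase, gave 0.12 ± 0.067 on the log2 scale, Eif2ak2, the kinase activated by double-stranded RNA, -0.27 ± 0.13, and Eif2ak4, the sensor of uncharged tRNA, 0.34 ± 0.16 (edgeR adjusted p = 0.34, 0.27 and 0.249). Per kilobase of exon, Eif2ak1 was the highest of the 4 kinases, at 23.6 ± 0.90 CPM per kb in aged and 21.7 ± 0.67 in young monocytes, ahead of Eif2ak3 at 14.7 ± 0.092 in aged and 14.0 ± 1.13 in young monocytes (SD, n = 2 each).

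Atf4 and Ddit3, the transcription factors downstream of eIF2 phosphorylation, differed between the ages by less than replicates did. Atf4 had 44.96 and 53.8 CPM in the aged libraries, against 49.9 and 43.1 CPM in the young ones (log2 change 0.082 ± 0.11, 95% interval -0.16 to 0.33, edgeR adjusted p = 0.715; chr15:80255184-80257541, plus strand). The groups overlap, and ATF4 is controlled largely at translation, which RNA counts do not measure. Ddit3, the gene of the death-promoting factor CHOP, was low, with 158 and 145 counts in the aged libraries, against 196 and 147 in the young ones. Its level was 6.30 and 6.67 CPM in the aged libraries, against 5.67 and 7.37 CPM in the young ones, with the aged values inside the young range (log2 change 0.0054 ± 0.20, 95% interval -0.44 to 0.45, edgeR adjusted p = 0.992; chr10:127290774-127296288, plus strand). Exons of Ddit3 share 68 bases with Mars and 105 with a second gene model of the same name in GENCODE M21, and whether the counting used strand is not known from the sources at hand, so reads there may be shared or lost.

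Ppp1r15a, the gene of GADD34, was higher in aged monocytes. It had 500 and 394 counts in the aged libraries, against 270 and 141 in the young ones, which is 19.9 and 18.1 CPM in the aged libraries against 7.81 and 7.07 CPM in the young ones. The gap between the lowest aged and the highest young value was wider than that between the replicates of either age. The log2 change was 1.35 ± 0.14 (edgeR adjusted p = 0.000367), a 2.56-fold higher mean, and the adjusted p stayed under the threshold in all 17 alternatives, with changes from 1.28 to 1.43. The gene lies at chr7:45522916-45526268 on the minus strand and shares 12 exonic bases with Tulp2 on the other strand. Ppp1r15b, the constitutive partner subunit CReP that does the same work without stress, stood at 239 and 229.9 CPM in the aged libraries against 276 and 268 CPM in the young ones, a log2 change of -0.21 ± 0.058 that did not pass (edgeR adjusted p = 0.058, and from 0.0182 to 0.347 over the alternatives with no replicate block). Per kilobase of exon, Ppp1r15a amounted to 15.9% and 15.02% of the Ppp1r15b level in the aged libraries, against 5.40% and 5.02% in the young ones.

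The promoter of Ppp1r15a is shown because it belongs to the only regulator that passed the test as higher. That of Herpud1 is shown because it carries response elements of both stress pathways. These are the 250 bases before the RefSeq start, from RefSeq on GRCm38.p6, written 5′ to 3′ on the gene's strand, for Ppp1r15a at chr7:45526269-45526518 (minus) and for Herpud1 at chr8:94386179-94386428 (plus), with the motif matches in capitals.
Ppp1r15a: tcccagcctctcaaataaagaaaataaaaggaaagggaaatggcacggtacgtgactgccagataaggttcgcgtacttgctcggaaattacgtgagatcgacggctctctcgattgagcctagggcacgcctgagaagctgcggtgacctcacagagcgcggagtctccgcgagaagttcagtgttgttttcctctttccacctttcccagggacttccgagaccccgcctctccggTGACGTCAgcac
Herpud1: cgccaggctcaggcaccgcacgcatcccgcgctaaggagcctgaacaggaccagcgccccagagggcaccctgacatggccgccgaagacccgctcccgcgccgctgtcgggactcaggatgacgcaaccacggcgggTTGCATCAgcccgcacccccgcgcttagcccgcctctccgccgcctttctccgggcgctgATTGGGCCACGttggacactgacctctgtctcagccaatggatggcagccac

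The capitals in Ppp1r15a mark the cyclic AMP response element TGACGTCA, 12 bases before the start, a site bound by CREB and ATF family factors. In Herpud1 they mark, from left to right, the C/EBP-ATF response element (CARE, the element of ATF4, TGATGNAA, here on the other strand) and the ER stress response element II (ERSE-II), bound by ATF6 and XBP1. The promoters of 9 of the 10 regulators were found, all but that of Atf6, and each motif was searched on both strands in windows from 250 bases before the start to 50 after it. Among the 9, the 8-letter CRE occurred in Ppp1r15a, and CARE and ERSE-II in Herpud1; the ER stress response element (ERSE) and the XBP1 element TGACGTGG occurred in none. Of all 32851 promoters, 1.79% held the CRE, 3.97% CARE, 0.0365% ERSE-II, 0.119% ERSE and 0.676% TGACGTGG. A match describes letters and not a bound site. Of 339 tested genes with the CRE, 8 were higher and 11 lower in aged monocytes, which is 5.60% called, with a median log2 change of 0.0061.

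Immediate early genes, which cells switch on within minutes of a stimulus, moved with Ppp1r15a. Of 25 tested, 13 were higher and 1 lower in aged monocytes, where 2.87% of all tested genes were higher and 2.89% lower. The median log2 change of the list was 0.66 beside -0.0044 over all genes. Its summed level was 4924 and 5257 CPM in the aged libraries, against 3108 and 3119 CPM in the young ones. The groups did not overlap, nor did they for 51.6% of all tested genes taken singly. The 4 with the smallest p were Fos, an AP-1 subunit (log2 change 1.997 ± 0.063), Zfp36, which destabilises inflammatory mRNAs (1.31 ± 0.055), Dusp1, a MAP kinase phosphatase (1.26 ± 0.056), and Egr1, a zinc finger factor (2.14 ± 0.11). The 1 lower gene was Fosl2 (-0.46 ± 0.11, edgeR adjusted p = 0.041, but 0.111 without young replicate 1, 0.0865 without young replicate 2 and 0.109 in robust edgeR). Their part in the Ppp1r15a level was not tested.

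Cytosolic heat shock genes were higher in part. Their list also holds Hspd1 and Hspe1, whose products are mitochondrial chaperones. Neither of these passed (log2 changes 0.062 ± 0.068 and -0.085 ± 0.093). Of the 12 tested genes of the list, 5 were higher and none lower, where 2.87% of all tested genes were higher and 2.89% lower. The median log2 change of the list was 0.27. The 4 with the smallest p were Hspa8, the constitutive chaperone HSC70 (0.44 ± 0.052), Dnaja1, its co-chaperone (0.54 ± 0.070), and the inducible Hspa1b (1.77 ± 0.25) and Hspa1a (2.53 ± 0.48), a near-identical pair between which reads could be split. Hspa1a was low, at 2.35 and 1.79 CPM in the aged libraries against 0.289 and 0.451 CPM in the young ones, and did not pass without young replicate 1 (edgeR adjusted p = 0.144).

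Markers of patrolling, or non-classical, monocytes moved as well. Of 11 tested, 7 were higher, Cd36, Adgre4, Nr4a1, Treml4, Ace, Eno3 and Cd300e, where 2.87% of all tested genes were. The other 4 did not pass. Log2 changes were positive in 9 of 11, in a range of -0.24 to 2.44. The 11 together summed to 2352 and 2191 CPM in the aged libraries against 1873 and 1755 CPM in the young ones. No marker was at 0 in all libraries. In the list of classical monocyte markers Chil3, Ly6c2 and Fn1 were lower and Cd177, better known from neutrophils, was higher. Of 8 tested in this list, 2 had a positive log2 change, and the median was -0.32. The list summed to 16180 and 16242 CPM in the aged libraries against 19592 and 19790 CPM in the young ones. Fn1 did not pass in robust edgeR (0.111), with GC content and length taken out (0.0513) or without young replicate 1 (0.0764). Nr4a1 stands in the immediate early list too. The part of either subset in the levels of Ern1 and Ppp1r15a was not tested.

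Herpud1, whose product organises the degradation complex at the ER membrane, had 149.6 and 160.5 CPM in the aged libraries, against 130.5 and 141 CPM in the young ones (chr8:94386438-94395377, plus strand). Both aged values exceeded both young ones, by less than the distance between the replicates of either age. The log2 change was 0.19 ± 0.070 (95% interval 0.037 to 0.35) and did not pass (edgeR adjusted p = 0.147).

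Sel1l, the adaptor of the ubiquitin ligase HRD1, had 189 and 179 CPM in the aged libraries, against 172 and 181 CPM in the young ones (log2 change 0.066 ± 0.063, 95% interval -0.074 to 0.21, edgeR adjusted p = 0.598; chr12:91806043-91849157, minus strand). The groups overlap. Edem1, a mannosidase-like lectin that hands misfolded glycoproteins to the same complex, had 444 and 428 CPM in the aged libraries, against 457 and 454 CPM in the young ones (-0.062 ± 0.053, 95% interval -0.18 to 0.056, edgeR adjusted p = 0.551; chr6:108828641-108859356, plus strand). Its aged values lay below the young ones and the gap between the groups was smaller than that between the aged replicates.

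Among 25 other genes of ER-associated degradation none passed with edgeR, DESeq2 or limma-voom, and 6 had an unadjusted edgeR p under 0.05. Their log2 changes were positive in 19 of 25, where 49.3% of all tested genes were positive, with a median of 0.082 and a range of -0.37 to 0.28. The smallest p belonged to Os9, a lectin of the HRD1 complex, at 248 and 242 CPM in the aged libraries against 207 and 218 CPM in the young ones (0.21 ± 0.059, edgeR adjusted p = 0.0676, and from 0.0329 with no low-count filter to 0.416 over the alternatives with no replicate block). Syvn1, which encodes HRD1 itself and was picked here after its value was seen, had 60.8 and 66.6 CPM in the aged libraries against 51.6 and 53.7 CPM in the young ones (0.28 ± 0.084, edgeR adjusted p = 0.0855).

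**Figure D3:**
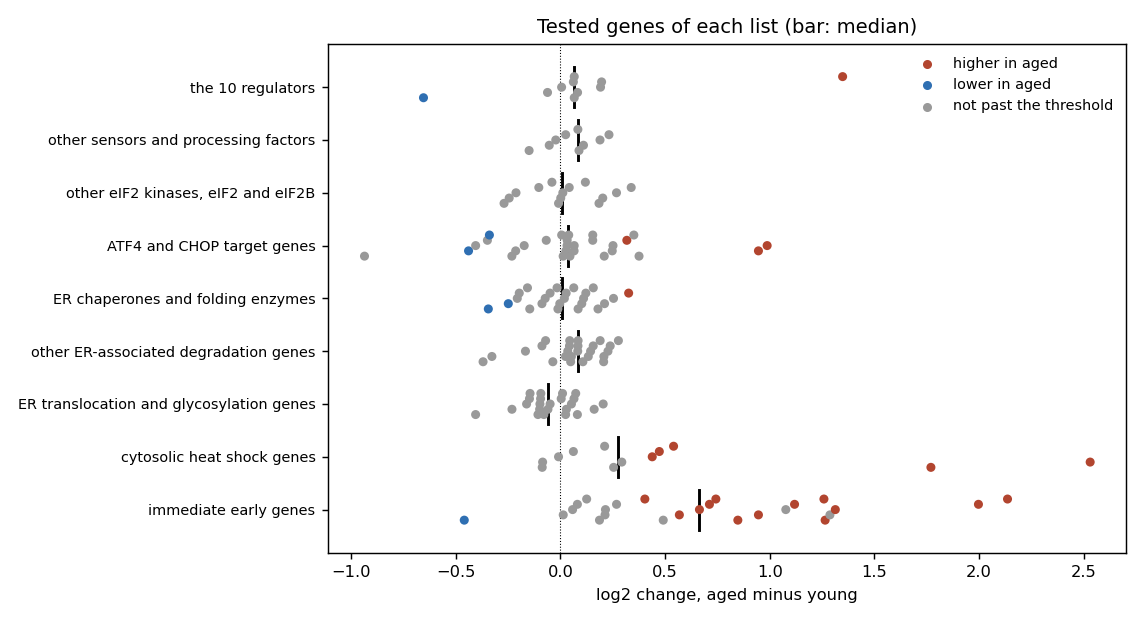
Each point is the log2 change (aged minus young) of 1 tested gene, by list, with a bar at the list's median. The medians of the regulators and of the 6 ER and eIF2 lists lie between -0.060 and 0.083, those of the heat shock and immediate early lists at 0.27 and 0.66.

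Of 24 chaperones and folding enzymes of the ER, 1 was higher and 2 lower, with a median log2 change of 0.0076, where 5.77% of all tested genes were called. Hspa5, which encodes BiP, the chaperone that holds the 3 sensors inactive, had 772 and 777 CPM in the aged libraries against 600.3 and 636 CPM in the young ones. The groups did not overlap, and the log2 change was 0.33 ± 0.054 (edgeR adjusted p = 0.00663); it did not pass without young replicate 1 (0.0751). Hyou1, a large ER chaperone of the HSP70 kind, was lower, at 52.9 and 59.3 CPM in the aged libraries against 72.6 and 69.7 CPM in the young ones (-0.34 ± 0.085, edgeR adjusted p = 0.0431). Uggt1, the glucosyltransferase that checks glycoprotein folding, was lower too, at 267 and 268 CPM in the aged libraries against 317 and 319 CPM in the young ones (-0.25 ± 0.054, edgeR adjusted p = 0.0259). Hyou1 did not pass when aged replicate 1 or either young library was left out (0.0916 to 0.283) and with upper-quartile or library size scaling (0.0509 and 0.0505), and Uggt1 did not when aged replicate 2 or either young library was left out (0.0535 to 0.169). Uggt1 also did not pass with GC content and length taken out, where its change was -0.16. Hsp90b1, an abundant ER chaperone named here after its value was seen, stood at 489 and 480.4 CPM in the aged libraries against 534 and 548 CPM in the young ones (-0.16 ± 0.052, edgeR adjusted p = 0.113).

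Of 28 tested target genes of ATF4 and CHOP, 3 were higher and 2 lower, where 5.77% of all tested genes were called. Their median log2 change was 0.036. Nupr1, a stress-induced chromatin protein, had 18.1 and 19.7 CPM in the aged libraries against 9.66 and 9.38 CPM in the young ones (0.99 ± 0.13, edgeR adjusted p = 0.00189). Atf3, a transcriptional regulator that the immediate early list also holds, had 35.5 and 37.4 CPM in the aged libraries against 20.05 and 17.7 CPM in the young ones (0.95 ± 0.11, edgeR adjusted p = 0.00072). For both genes the aged libraries lay above the young ones, and both passed in all 17 alternatives. Cebpb, a myeloid transcription factor and also a monocyte identity marker, was higher at 0.32 ± 0.070 (edgeR adjusted p = 0.0267) but did not pass when aged replicate 2 (0.0904) or young replicate 1 (0.185) was left out.

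The 2 lower targets were genes of amino acid supply. Psat1, an enzyme of serine synthesis, had 73.3 and 79.5 CPM in the aged libraries against 103 and 90.3 CPM in the young ones (-0.34 ± 0.085, edgeR adjusted p = 0.0448), and Slc7a5, a carrier of large neutral amino acids, 27.5 and 33.5 CPM in the aged libraries against 39.8 and 43.0 CPM in the young ones (-0.44 ± 0.11, edgeR adjusted p = 0.0477). Neither passed with library size scaling (0.0573 and 0.0515) or upper-quartile scaling (0.0545 and 0.054), nor without aged replicate 1 (0.0743 and 0.123) or young replicate 1 (0.371 and 0.145), and Slc7a5 did not pass without young replicate 2 either (0.167). Asns, Chac1 and Trib3, ATF4 targets named here after their values were seen, did not pass (edgeR adjusted p = 0.428, 0.378 and 0.598). Asns, asparagine synthetase, had 8.77 and 10.5 CPM in the aged libraries against 7.98 and 8.22 CPM in the young ones. Chac1, which breaks down glutathione, had 3.31 and 4.69 CPM in the aged libraries against 5.76 and 4.71 CPM in the young ones. Trib3, a pseudokinase that inhibits ATF4, had 1.79 and 3.22 CPM in the aged libraries against 1.76 and 2.11 CPM in the young ones.

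The elements of 3 of these changed genes are shown with 20 bases on each side, on the gene's strand (RefSeq, GRCm38.p6), for comparison with those in Herpud1: the CARE of Atf3 at chr1:191183416-191183463 (minus) and of Nupr1 at chr7:126625553-126625600 (minus), and the ERSE of Hspa5 at chr2:34772005-34772063 (plus), with the matches in capitals.
Atf3: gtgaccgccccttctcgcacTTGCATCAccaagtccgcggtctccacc
Nupr1: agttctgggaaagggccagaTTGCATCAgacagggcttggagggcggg
Hspa5: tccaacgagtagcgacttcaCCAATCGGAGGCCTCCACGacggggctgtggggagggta

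CARE was found in 9 of 24 target genes of ATF4 and CHOP with a promoter, which is 37.5%, and ERSE in 7 of 19 ER chaperone genes, which is 36.8%. A gene counted here if any of its promoters held the element, whereas the shares over all promoters given above count each promoter. Among the 9 with CARE (Asns, Chac1, Trib3, Atf3, Nupr1, Slc7a11, Vldlr, Aars and Gars), Vldlr had 0 counts in all 4 libraries and was not tested. Of the rest, Atf3 and Nupr1 were higher and none was lower. Among the 7 with ERSE (Hspa5, Hsp90b1, Pdia6, Calr, Canx, Dnajc3 and Creld2), Hspa5 was higher and none was lower. Over all 14 tested genes with ERSE, 1 was higher and 1 lower. Over all 266 tested genes with CARE, 13 were higher and 6 lower, which is 7.14% called beside the 5.77% of all genes, with a median log2 change of 0.011.

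The list of the other eIF2 kinases, eIF2 and its exchange factor eIF2B also holds Ppp1r15b, Impact and Nck1, which belong to none of these. Of its 14 tested genes none passed with edgeR or DESeq2, and 1 passed with limma-voom (Ppp1r15b). An unadjusted edgeR p under 0.05 was found for 2, of which Ppp1r15b had the smallest. The median log2 change of the 14 was 0.0062. Of 23 genes of ER translocation and glycosylation none passed with edgeR, DESeq2 or limma-voom and 4 had an unadjusted edgeR p under 0.05, with a median of -0.060. The smallest p was that of Sec61g, a subunit of the translocation channel, at 38.3 and 31.6 CPM in the aged libraries against 50.02 and 42.5 CPM in the young ones (-0.41 ± 0.12, edgeR adjusted p = 0.0729, and from 0.00297 to 0.445 over the alternatives with no replicate block). Over the 6 lists joined, 4 of 123 tested genes were higher and 4 lower, a share near the 5.77% called over all tested genes. That share was not even across the lists. All of the called genes lay among the target genes of ATF4 and CHOP and the chaperones and folding enzymes of the ER.

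Per kilobase of exon, which allows genes to be compared, Xbp1 led the regulators in both groups, at 136 ± 3.15 CPM per kb in aged and 119 ± 0.23 in young monocytes (SD, n = 2 each). Edem1 and Herpud1 followed, at 67.6 ± 1.75 and 66.4 ± 3.31 CPM per kb in aged monocytes, which did not differ beyond their spread, and at 70.6 ± 0.31 and 58.2 ± 3.25 in young ones. Sel1l and Atf4 lay together in both groups, at 21.6 ± 0.82 and 20.9 ± 2.64 in aged and 20.6 ± 0.78 and 19.7 ± 2.04 in young monocytes. Eif2ak3 and Atf6 came next, at 14.7 ± 0.092 and 12.2 ± 1.83 in aged and 14.0 ± 1.13 and 11.7 ± 0.38 in young monocytes.

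The lowest 3 regulators changed order between the ages. In aged monocytes Ppp1r15a and Ern1 stood together, at 6.48 ± 0.44 and 6.23 ± 0.96 CPM per kb, above Ddit3 at 3.78 ± 0.15. In young monocytes Ern1 stood at 9.79 ± 0.18, Ddit3 at 3.81 ± 0.70 and Ppp1r15a last at 2.53 ± 0.18 (SD, n = 2 each). All values of this kind rest on the exon length of the GENCODE M21 models, and the annotation behind the counts is not given in the sources used here.

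Genes most like Ern1 and Ppp1r15a were taken as the 3 with the smallest root mean square distance of centred log2 CPM over the 4 libraries, among 9193 other genes of at least 5 CPM. For Ern1 these were Notch2, a Notch receptor gene, at a distance of 0.022, Zfp865 at 0.024 and Ndst1, a heparan sulfate enzyme gene, at 0.042. Notch2 had 349.6 and 422 CPM in the aged libraries against 630.2 and 597 CPM in the young ones. For Ppp1r15a they were Ciita, the activator of MHC class II genes, at 0.023, H2-Aa, a class II chain gene, at 0.045, and Ccl3, a chemokine gene, at 0.051. Ciita had 44.7 and 39.9 CPM in the aged libraries against 16.9 and 15.9 CPM in the young ones. With 4 libraries, many genes share such a pattern.

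**Figure D4:**
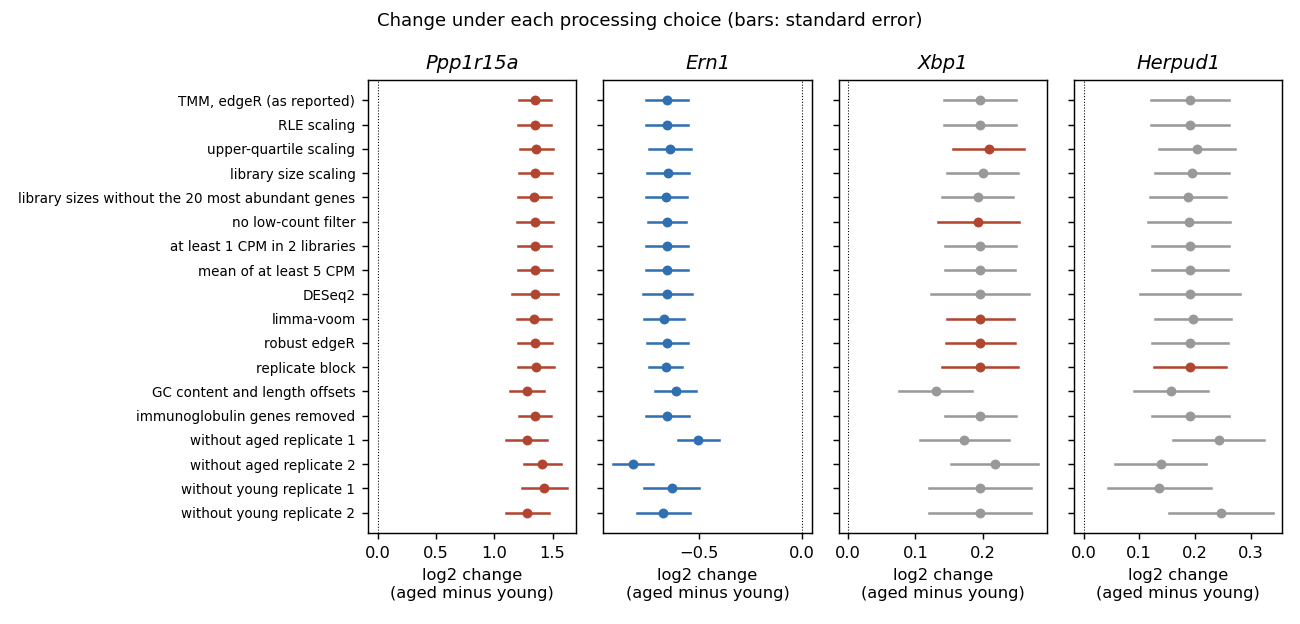
The log2 change (aged minus young) of 4 regulators is drawn with its standard error under the reported fit and 17 alternatives, in colour where the adjusted p is under 0.05. Ppp1r15a ran from 1.28 to 1.43 and Ern1 from -0.82 to -0.50, past the threshold throughout, while Xbp1 ran from 0.13 to 0.22 and Herpud1 from 0.14 to 0.25.

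Markers of further cell types that a sorted monocyte sample could hold were counted as a check of the labels. Csf1r, Spi1, Cd68 and Cebpb were higher and Mpeg1 lower among 12 monocyte identity markers. Their sum was 41995 and 41761 CPM in the aged libraries against 39390 and 41760 CPM in the young ones. Lyz2 made up most of that sum, at 34817 and 34681 CPM in the aged libraries against 32731 and 35182 CPM in the young ones. Among B lineage markers Cd79b and Ms4a1 were higher. Of the tested plasmacytoid dendritic cell markers 1 of 10 was higher (Spib), of conventional dendritic cell markers 4 of 10 (Ciita, Flt3, Itgax, Clec10a), of erythroid markers 1 of 9 (Slc4a1), of marrow macrophage markers 3 of 12 (C1qb, Axl, C1qc), and of T and NK cell markers 0 of 10 in edgeR, with 2 at an unadjusted p under 0.05. Of 14 neutrophil markers Ltf and Ngp were higher and S100a8, Cxcr2, Elane, Prtn3 and Mpo lower. These 14 summed to 35492 and 36065 CPM in the aged libraries against 36771 and 35634 CPM in the young ones. That sum was below only that of the monocyte identity list. S100a8 and S100a9 were the most abundant of the 14 in each library, and monocytes make both too. The sum therefore does not measure neutrophils alone. The B lineage list summed to 56.6 and 58.1 CPM in the aged libraries against 38.4 and 35.1 CPM in the young ones. Without young replicate 1, Spi1, Cd68, Cebpb, Mpeg1, Cd79b, Ms4a1, Spib, Flt3, Itgax, Clec10a, Slc4a1, C1qc, Prtn3 and Mpo did not pass (edgeR adjusted p from 0.05002 to 0.268). The same held without aged replicate 2 for Cebpb, Cd68, Mpeg1, Cd79b, Ms4a1, Clec10a and Mpo (0.0516 to 0.143), and without young replicate 2 for Cd68, Cd79b, Ms4a1, Clec10a and Mpo (0.0718 to 0.143). Clec10a also did not pass with GC content and length taken out (0.0561). The part of these cells in the levels of the regulators was not tested.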

How the data were processed

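The values the authors deposited are raw, whole-number counts by gene symbol, in a separate file for each library. STAR 2.5.3, cutadapt, DESeq2 and HTSeq appear in the submitters' processing notes beside the build mm10, with no role given; libraries were made from oligo-dT selected mRNA with dUTP strand marking, per the labels' protocols. Which annotation and which strand option the counting used is not given in the sources used here. Intervals cover counting error and the spread between libraries only as the fit estimates it.

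Genes were kept by filterByExpr (minimum count 10, minimum total 15), scaled with TMM factors and tested for age, two-sided, with edgeR's quasi-likelihood F-test, adjusted by Benjamini-Hochberg. The standard error is the log2 change divided by the square root of F. Positions and exon lengths come from GENCODE M21 (GRCm38), promoters from RefSeq (GRCm38.p6).

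The 10 regulators, the gene lists and all tests were chosen with earlier results of these data known. All regulators were named; from each pathway, heat shock and immediate early list, up to 4 called genes per direction by smallest p, or else the gene of smallest p. For cell type markers the called genes were named, and the most abundant one only for plasma cells, monocyte identity and neutrophils. Some marker genes are not reported here. Genes outside this rule, chosen after their values were seen, are Ern2, Atf6b, Mbtps1, Mbtps2, Eif2ak1, Eif2ak2, Eif2ak4, Jchain, Syvn1, Hsp90b1, Asns, Chac1 and Trib3. Derl3, Pou2af1, Impact, Nck1, Hspd1, Hspe1 and S100a9 were also named after their values were seen.

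Alternatives were other low-count filters and scalings, robust edgeR, limma-voom, DESeq2, the replicate number as a block, GC content and length offsets (natural splines, 5 degrees of freedom), removal of immunoglobulin genes, and each library left out. The procedure was tested on simulated data. Versions were DESeq2 1.42.0, limma 3.58.1 and edgeR 4.0.16 in R 4.3.3.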

Additional observations from a re-analysis of the deposited data

How the results depend on the processing

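Ppp1r15a and Ern1 passed in all 17 alternatives, and Atf4, Atf6, Ddit3, Eif2ak3, Sel1l and Edem1 in none. No result reversed, though the log2 changes of Atf4 (-0.055 to 0.20), Atf6 (-0.10 to 0.20), Ddit3 (-0.18 to 0.19) and Eif2ak3 (-0.014 to 0.15), which did not pass, took either sign. With Xbp1 as the further gene, 2 regulators were higher with upper-quartile scaling, no low-count filter, limma-voom and robust edgeR. With the replicate number as a block 3 were higher, Xbp1 (adjusted p = 0.0064) and Herpud1 (0.0266) among them; the libraries share only a number, and the deviations of same-numbered libraries correlated at 0.20 across genes. The block also gave 801 higher and 1016 lower genes in all, beside 346 and 348 as reported, and 11 and 13 in the 6 joined lists. Without a low-count filter 606 genes were higher and 793 lower, and 10 listed genes lower. Lower listed genes numbered 1 with upper-quartile and with library size scaling, and 7 with GC content and length offsets. With 1 library left out, its partner being assumed to vary like the other age, the genes higher in aged numbered 116 to 452 and those lower 81 to 588, the fewest without young replicate 1, the deepest library; in the joined lists 2 to 5 were higher and 0 to 5 lower, and 1 regulator was higher and 1 lower each time. The cause of these differences was not tested.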
